A study of Rattus norvegicus with 9 samples.

Results

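Gfap encodes glial fibrillary acidic protein, the intermediate filament protein of astrocytes. It was measured here by mRNA-Seq in the dorsal hippocampus of epileptic and control rats as 1 transcript, ENSRNOT00000034401, out of 31786 transcripts counted. The transcript was chosen because the study itself pairs this identifier with Gfap and lists it among epilepsy-related genes whose expression differed between epileptic and control animals in these same libraries. Its levels in those 2 groups are therefore a description, and no test of that contrast is given.

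Astrocytes are the main supporting cells of the hippocampus. They clear glutamate and potassium from the space around synapses and supply neurons with metabolites. After seizures or the loss of neurons they enlarge, thicken their processes and fill them with filaments built from Gfap together with vimentin and nestin, a state known as reactive astrogliosis. It is a regular feature of hippocampal sclerosis in temporal lobe epilepsy, and Gfap is its most widely used marker. Mutations of the human gene cause Alexander disease, in which seizures are common.

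Libraries of poly-A RNA were prepared from 9 male Wistar rats, 1 library per animal and 3 per group. CTRL rats received methyl scopolamine (1 mg/kg) and saline and were fed a standard diet. PILO rats received methyl scopolamine followed by pilocarpine (340 mg/kg), a muscarinic agonist that induces status epilepticus, and the same standard diet. PILO+KD rats were treated with pilocarpine likewise but fed a ketogenic diet, which is high in fat and low in carbohydrate. Status epilepticus was ended with diazepam (8 mg/kg) after 60 min in the pilocarpine-treated animals, and observation lasted 84 days. No group received the ketogenic diet without pilocarpine, so the effect of the diet on Gfap in healthy hippocampus was not measured. The tissue held all hippocampal cell types. More astrocytes and more Gfap mRNA per astrocyte cannot be told apart in such RNA. The usual marker lists of astrocytes, microglia, neurons, oligodendrocytes and endothelium were not analysed here, because symbols could be given only to genes that the study itself pairs with a transcript. Gfap was the only marker of reactive astrogliosis among these, and the label of the tissue was not checked against such lists.

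Total counts ranged from 9904067 to 24092617 per library. PILO+KD replicate 3 had the fewest counts and alone carried the label FC095, against FC094 in the others, read here as a second flow cell. The 10 most abundant transcripts held 26.0% of all counts in PILO replicate 3, against 12.1% to 19.3% elsewhere, and the normalization factor of that library was lowest at 0.831 (0.969 to 1.07 in the others). The Gfap fold changes and log2 SDs that rest on these libraries are also given without them.

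Gfap was higher in every PILO library than in any CTRL library. Of the 22283 transcripts tested, 13.2% showed such a separation in the same direction. The CTRL libraries held 14581, 7859 and 18114 Gfap counts in replicates 1, 2 and 3, and the PILO libraries 36304, 70552 and 26390. Those of PILO+KD held 61350, 16736 and 19007. Divided by the size of each library after adjustment by the trimmed mean of M-values, TMM (normalised counts, in the usual unit CPM), Gfap stood at 704, 526 and 770 CPM in the CTRL libraries. It stood at 2006, 2853 and 1543 CPM in the PILO libraries. The lowest PILO library thus held 2.31 times the CTRL mean and the highest 4.28 times.

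In the PILO+KD libraries the normalised count was 2632, 834 and 1786 CPM. Replicates 1 and 3 lay within the range of the PILO libraries, at 3.95 and 2.68 times the CTRL mean. Replicate 2 lay below every PILO library and just above the highest CTRL library, at 1.25 times the CTRL mean. Group means were 667 ± 127 CPM in CTRL, 1751 ± 900 CPM in PILO+KD and 2134 ± 664 CPM in PILO (SD, n = 3 each). The neighbours PILO+KD and PILO overlapped, and their means differed by less than the SD of either. The CTRL and PILO+KD libraries did not overlap in these normalised counts, but did when scaled by library totals alone. In the normalised counts 4.65% of all transcripts tested were likewise higher in PILO+KD without overlap.

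**Figure D1:**
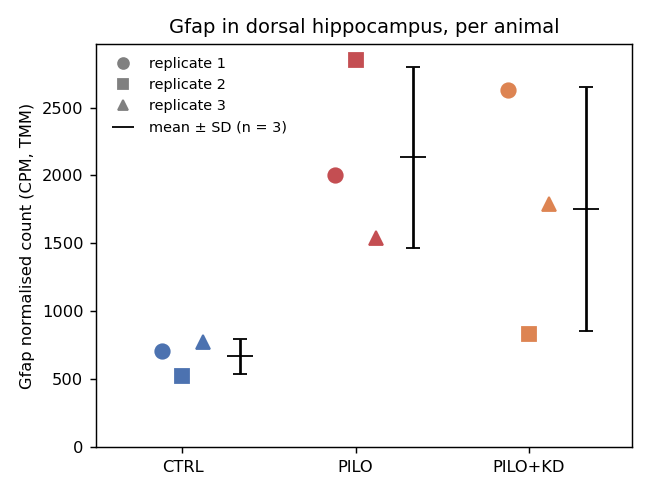
Normalised count of Gfap in CPM (vertical axis, from 0) for each animal of the 3 groups; marker shapes give the replicate, and the black bar with whiskers is the mean ± SD of 3 animals. The CTRL animals lie between 526 and 770 CPM and the PILO animals between 1543 and 2853 CPM, while the PILO+KD animals run from 834 to 2632 CPM.

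By count, which was not corrected for transcript length, Gfap was abundant in all animals and ranked higher in the pilocarpine-treated ones. It took 0.0682 ± 0.0147% of all counts in CTRL, 0.208 ± 0.0825% in PILO and 0.182 ± 0.0973% in PILO+KD (SD, n = 3 each). Put another way, 1 count in 1903 to 1 count in 1222 came from Gfap in the CTRL libraries, and 1 in 781 to 1 in 341 in the PILO libraries. When the transcripts of each library were ordered by count, Gfap ranked 117, 181 and 110 in the CTRL libraries. In PILO it ranked 18, 16 and 46, and in PILO+KD 16, 88 and 21. PILO+KD replicate 2 was thus the only pilocarpine-treated animal in which Gfap was outside the 50 most abundant transcripts, and even there its rank was above that of all CTRL libraries.

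**Figure D2:**
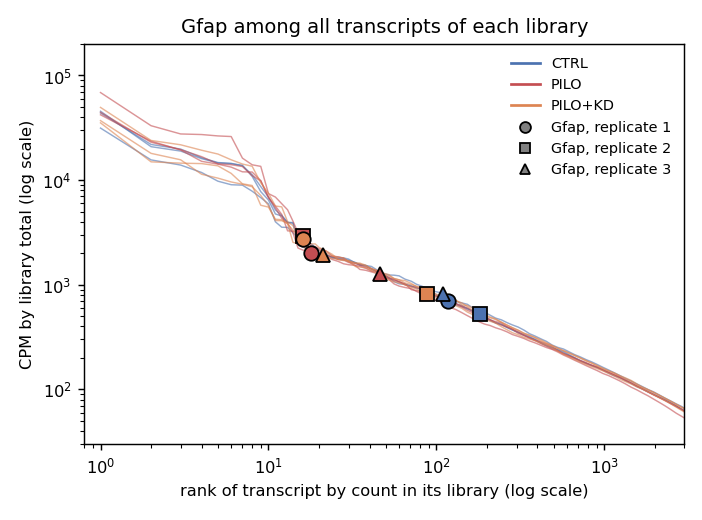
Level of each transcript in CPM, scaled by the library total, (vertical axis, log scale) against its rank by count in the same library (horizontal axis, log scale); each line is 1 library and the marker on it is Gfap. The CTRL markers lie at ranks 110 to 181 and the PILO markers at ranks 16 to 46.

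Counting error was small beside the variation between animals. With 7859 to 70552 counts per library, counting alone would give a coefficient of variation of 0.376% to 1.13%, whereas it was 19.0% among the CTRL animals, 31.1% among PILO and 51.4% among PILO+KD. The biological coefficient of variation fitted for Gfap was 0.309, against 0.212 for transcripts of its abundance. On the log2 scale the SD of Gfap was 0.29 in CTRL, 0.44 in PILO and 0.84 in PILO+KD.

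Of 1710 transcripts with a mean of at least 100 CPM, 8 (0.468%) had a larger SD than Gfap in PILO+KD, where the median SD was 0.19 log2. In CTRL 159 of them (9.30%) had a larger SD than Gfap, with a median of 0.15, and in PILO 588 (34.4%), with a median of 0.35. The highest PILO+KD library held 3.16 times the Gfap of the lowest one, compared with 1.85 times in PILO and 1.47 times in CTRL.

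With 3 animals a group, each of these spreads rested on single libraries. In PILO+KD it was carried by replicate 2. Without that animal the SD of Gfap was 0.40 log2, the ratio of highest to lowest 1.47, and 122 of the 1710 transcripts (7.13%) had a larger SD. Without PILO+KD replicate 1 the SD was 0.78 and the count 25 (1.46%), and without replicate 3 they were 1.17 and 4 (0.234%). Without PILO replicate 3 the SD in PILO was 0.36 and the coefficient of variation 24.7%, still above the 0.29 and 19.0% of CTRL. The ratio in PILO was then 1.42, below the 1.47 of CTRL, but it came from 2 animals against 3. In that setting 39 transcripts (2.28%) had a larger SD than Gfap, with a median of 0.090. Without PILO replicate 2 the ratio in PILO was 1.30 and the count 1097 (64.2%). In CTRL the SD was 0.092 without replicate 2, when 1246 transcripts (72.9%) had a larger one, and the count was 98 (5.73%) without replicate 1 and 9 (0.526%) without replicate 3. All of these leave 2 animals in the group, and the order of the groups by spread was not tested.

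PILO was compared with CTRL to describe Gfap in chronic epilepsy on a standard diet. The fitted log2 fold change was 1.68 (SE 0.37), or 3.20-fold higher in PILO. All 9 pairings of a PILO with a CTRL library had the higher value in PILO. The study chose Gfap on this contrast, so nothing is read from the fact that the groups did not overlap, which 13.2% of all 22283 transcripts tested showed in the same direction. In size, the difference of 1467 CPM between group means was the 12th largest of all transcripts that were higher in PILO. By log2 fold change Gfap was at position 225 of 22283, and at position 2 among the 1710 transcripts of at least 100 CPM. Without PILO replicate 3, the library that stood apart, the log2 fold change was 1.86 (SE 0.44).

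The comparison of PILO+KD with CTRL asks whether epileptic animals fed the ketogenic diet still differed from controls in Gfap. The study listed the gene on the CTRL and PILO libraries, which favours a higher level in PILO+KD than in CTRL, and it was taken up here with earlier results of all groups known, so the p-values below are not independent of the choice. Gfap was 2.63-fold higher in PILO+KD (95% confidence interval 1.51 to 4.55), with a log2 fold change of 1.39 (SE 0.36). The unadjusted p of the edgeR quasi-likelihood test was 0.00242, and after Benjamini-Hochberg adjustment over all transcripts it was 0.986, so the difference did not pass the threshold of 0.05. No transcript passed in this comparison (0%), while 803 (3.60%) had an unadjusted p under 0.05, and Gfap had the 50th smallest p of 22283. The count of 0 rested on single libraries too, with 8 transcripts passing without PILO+KD replicate 2, 2 without CTRL replicate 2 and 0 without each of the other libraries of these groups. With other tools DESeq2 called 28 transcripts, limma with library quality weights 8 and the edgeR exact test 37. Gfap was not among them, with adjusted p-values of 0.0752, 0.0549 and 0.0877.

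In the TMM-normalised counts all 9 pairings of a PILO+KD with a CTRL library had more Gfap in PILO+KD, a separation that 4.65% of all transcripts showed in that direction. An exact two-sided permutation test of the normalised counts gave p = 0.1, the smallest p that 3 against 3 animals can give. The separation depended on the scaling. By library totals alone PILO+KD replicate 2 stood at 807 CPM and CTRL replicate 3 at 818 CPM, so that 8 of 9 pairings were higher in PILO+KD. Without PILO+KD replicate 2 the log2 fold change was 1.73 (SE 0.29, edgeR adjusted p 0.107), and without PILO+KD replicate 1 it was 0.97 (SE 0.35, edgeR adjusted p 1.00). Within 1 flow cell, that is without PILO+KD replicate 3, it was 1.38 (SE 0.42).

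The difference of 1084 CPM between the PILO+KD and CTRL means was the second largest of all transcripts that were higher in PILO+KD. It was 643 CPM, the 7th largest, without PILO+KD replicate 1, and 1542 CPM, the largest, without replicate 2. Within 1 flow cell, without replicate 3, it was 1066 CPM and the 5th largest. By log2 fold change Gfap was at position 170 of 22283, and at position 4 among the 1710 transcripts of at least 100 CPM. The median log2 fold change of those 1710 was -0.02.

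The comparison of PILO+KD with PILO asks whether Gfap differed with the diet among pilocarpine-treated animals. The PILO libraries had a part in choosing the gene for its high level in them, so this comparison is not independent of the choice, which favours a lower level in PILO+KD. The means were 1751 and 2134 CPM, a ratio of 0.820 in the fit (95% confidence interval 0.478 to 1.41), with a log2 fold change of -0.29 (SE 0.36). The edgeR quasi-likelihood test gave an unadjusted p of 0.440 and an adjusted p of 0.774, and an exact permutation test (two-sided, n = 3 each) gave p = 0.6. In 3 of 9 pairings the PILO+KD library held more Gfap. The interval covers a level less than 50% of that in PILO as well as one above it, so these animals show neither a difference in Gfap between the diets nor its absence. No transcript passed in this comparison (0%), while 1602 (7.19%) had an unadjusted p under 0.05. With 1 library of these groups left out, 0 or 1 transcript passed. The other tools called 23 (DESeq2), 0 (limma) and 27 (edgeR exact test), and Gfap was not among them.

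The direction of this difference depended on 1 animal. Without PILO+KD replicate 2 the log2 fold change was 0.043 (SE 0.29), and without PILO+KD replicate 1 it was -0.70 (SE 0.36, unadjusted edgeR p 0.0753). Without PILO replicate 2, the PILO animal with the most Gfap, it was -0.019 (SE 0.37). PILO replicate 3 had the least Gfap of its group, and without it the log2 fold change was -0.47 (SE 0.44). Without PILO+KD replicate 3, within 1 flow cell, it was -0.30 (SE 0.43).

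**Figure D3:**
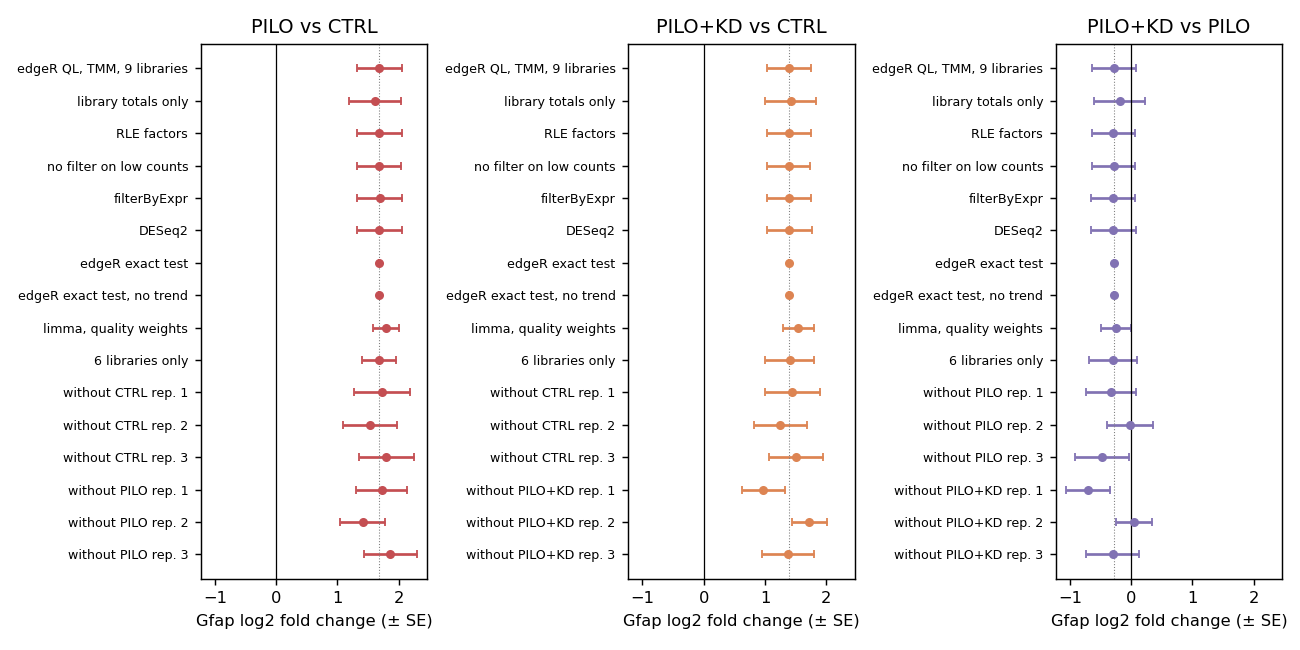
Log2 fold change of Gfap (horizontal axis; whiskers are SE where the tool gives one) in the 3 comparisons under the reported fit (top line of each panel), other tools, scalings and filters, and with each library left out; the dotted line is the reported value. All estimates lie above 0 in PILO vs CTRL and in PILO+KD vs CTRL, and those of PILO+KD vs PILO run from -0.70 to 0.043.

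Gfap was set beside 23 other genes that the study pairs with a transcript, all of them also chosen on PILO against CTRL in these libraries. They comprise 6 ion channels and receptors of neurons, 2 genes of intracellular calcium stores, 5 other epilepsy-related genes and 10 epigenetic regulators. Gfap had the highest normalised count of these 24 in CTRL, ahead of the calcium pump Atp2a2 at 328 CPM. In PILO vs CTRL 1 of the other 23 had a larger log2 fold change in size, the sodium channel subunit Scn4b with -2.20 (SE 0.34). In PILO+KD vs CTRL none of them had a larger one than Gfap, for which it was 1.39 (SE 0.36), and the nearest were the folate enzyme Mthfs with 1.12 (SE 0.32) and the DNA damage response gene Gadd45a with 1.06 (SE 0.34).

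All 6 ion channels and receptors were lower in PILO, with a median log2 fold change of -1.02 in PILO vs CTRL and -0.55 in PILO+KD vs CTRL. The inositol trisphosphate receptor Itpr1 and Atp2a2 were lower as well, with medians of -1.13 and -0.39. Of the 5 other epilepsy-related genes 3 were higher in PILO, among them the lysosomal cholesterol carrier Npc2, and of the 10 epigenetic regulators 4 were higher. After adjustment over all transcripts none of the 23 passed in PILO+KD vs CTRL or in PILO+KD vs PILO by the edgeR quasi-likelihood test. At an unadjusted p under 0.05 there were 5 of 23 in the first, against 3.60% of all transcripts, and 13 of 23 in the second, against 7.19%. Nothing is read from these counts, since the genes were chosen for a difference between the same PILO and CTRL libraries, which alone favours such p-values.

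To show where each PILO+KD animal stood, its log2 level was placed on a line with the CTRL mean of the same gene at 0 and its PILO mean at 1. For Gfap replicates 1, 2 and 3 stood at 1.21, 0.207 and 0.873, with a mean of 0.764. The median of the means over the other 23 genes was 0.399, and 2 of them, the GABA-A receptor subunit Gabrd (1.01) and Mthfs (0.990), had a mean above that of Gfap. The mean of Gabrd was carried by replicate 1 at 2.35, with replicates 2 and 3 at 0.121 and 0.550. Replicate 2 had the lowest position of the 3 animals for 15 of the 23 genes and the highest for 0, with a median position of 0.218, against 0.436 for replicate 1 and 0.482 for replicate 3. Replicate 1 stood farther toward PILO at Gfap than at 21 of the 23, replicate 2 than at 11 and replicate 3 than at 18. The positions share the CTRL and PILO means, and the genes were chosen on those groups, so they are a description. On linear CPM replicate 2 stood at 0.114 at Gfap, below its median of 0.231 over the other genes. With the PILO mean taken without PILO replicate 3, the mean position at Gfap was 0.677 and the median over the other genes 0.5003, and 7 of the 23 then had a mean above that of Gfap. Replicate 3 then stood at 0.774 at Gfap, with a median of 0.734 over the other genes.

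**Figure D4:**
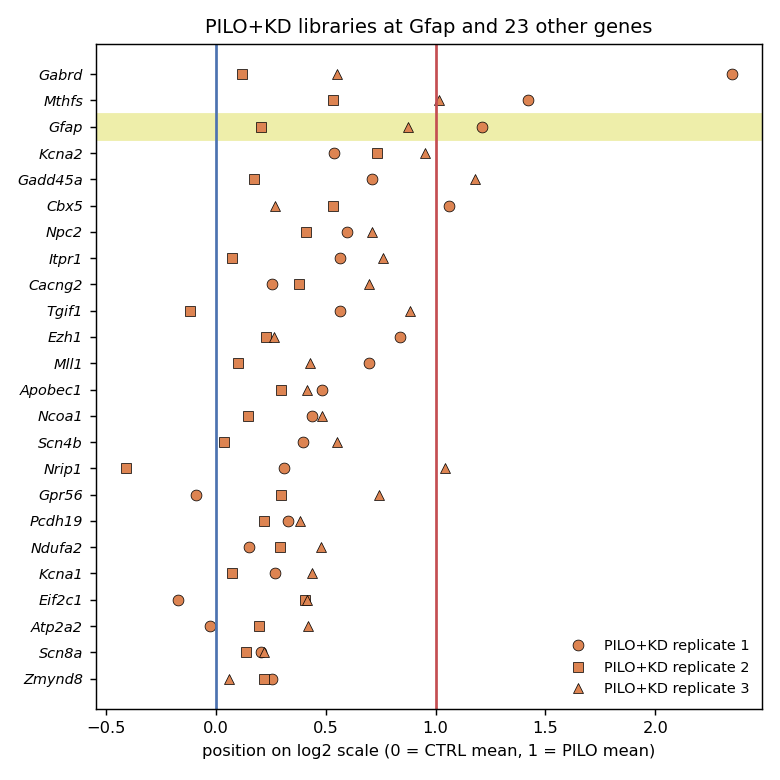
Position of the 3 PILO+KD libraries (markers) between the CTRL mean (0, blue line) and the PILO mean (1, red line) on the log2 scale (horizontal axis) for Gfap (shaded) and 23 other genes, ordered by the mean position (vertical axis). Gfap replicates 1 and 3 lie at 1.21 and 0.873 and replicate 2 at 0.207.

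The transcripts with the pattern most like that of Gfap were sought among 19514 with a mean of at least 20 counts, by Pearson's r of log2 CPM over the 9 libraries, which fall into 3 groups and share their depth and scaling. The value of r was at least 0.95 for 26 transcripts and at most -0.95 for 12, with a median of 0.00 over all. The most alike was ENSRNOT00000065277 (r = 0.991), which put the 9 animals in the same order as Gfap. Its levels were 313, 232 and 348 CPM in CTRL, 866, 1320 and 545 CPM in PILO and 1244, 359 and 815 CPM in PILO+KD. The next was ENSRNOT00000020265 (r = 0.983), at a much lower level of 2.94 ± 0.515 CPM in CTRL, 7.31 ± 2.01 CPM in PILO and 5.28 ± 2.12 CPM in PILO+KD (SD, n = 3 each).

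After the group means were taken away, r with Gfap was 0.991 for ENSRNOT00000065277 and 0.984 for ENSRNOT00000020265, deviations that were part of the values by which they were chosen. Without PILO replicate 3 and PILO+KD replicate 3, r was 0.999 and 0.987. The transcripts most opposite to Gfap were ENSRNOT00000008302 (r = -0.990) and ENSRNOT00000065965 (r = -0.984). ENSRNOT00000008302 stood at 89.6 ± 8.84 CPM in CTRL, 40.2 ± 10.2 CPM in PILO and 49.1 ± 23.4 CPM in PILO+KD, where replicate 2 had 75.4 CPM and the other animals 30.5 and 41.5 CPM. ENSRNOT00000065965 varied far less, from 62.5 to 86.5 CPM, and its r was -0.786 when libraries were scaled by their totals alone. Among the genes named by the study, Gadd45a was most like Gfap (r = 0.904, and 0.692 within groups), followed by Npc2 (0.864 and 0.539). The files do not pair the 4 identifiers with genes.

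**Figure D5:**
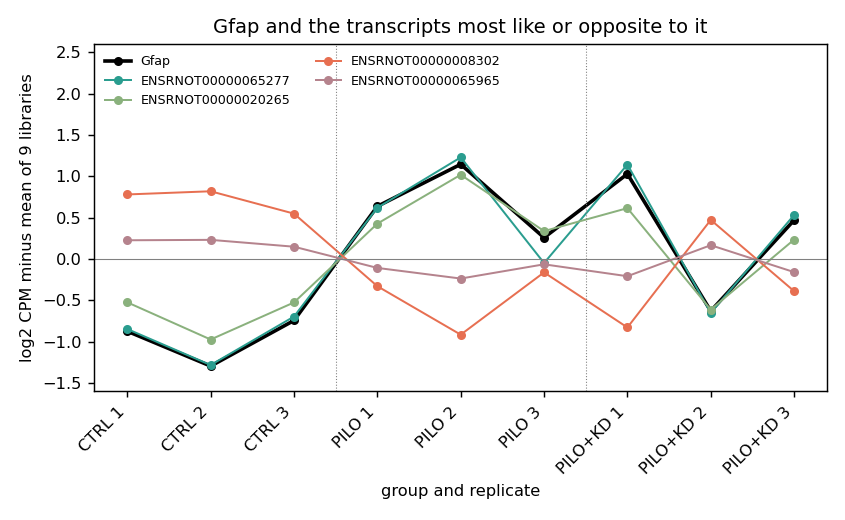
Log2 CPM minus the mean over 9 libraries (vertical axis) in each library (horizontal axis) for Gfap (black) and the 4 transcripts with the highest and lowest correlation with it. ENSRNOT00000065277 lies close to Gfap in all libraries but PILO replicate 3, where it is lower, and ENSRNOT00000065965 moves in the opposite direction over a much smaller range.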

How the data were processed

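Per the study's methods, single 36 bp reads were aligned to the rat genome RN4 with BWA 0.5.9 and tags were counted per Ensembl 66 transcript. The deposited values are raw counts, with no filter (3399 of 31786 transcripts had a total of 0). The rules for strand and for reads shared between transcripts are not given in the sources used here, so reads of overlapping transcripts may be counted for Gfap. Groups came from the labels, and replicate numbers follow deposition order. Replicates of a group differed beyond sampling noise (chi-square between 4.77 and 125 for each degree of freedom). Each library is 1 animal.

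As in the study, transcripts below the 30th centile of total counts (55) were left out, which kept 22283 (70.1%). Counts were normalised by trimmed mean of M-values (TMM) and all 9 libraries were fitted with the robust quasi-likelihood test of edgeR 4.0.16 (R 4.3.3), two-sided, Benjamini-Hochberg adjusted over all transcripts with a threshold of 0.05. SE was derived from the log2 fold change and its F statistic. Logged CPM used a prior count of 2. DESeq2 1.42.0, limma 3.58.1 and the edgeR exact test, other scalings and filters, and leaving out each library were tried. Of the genes the study pairs with a transcript, 1 is not reported here. Transcripts named beyond the others were the 2 most and 2 least correlated with Gfap. Gfap, the lists and the alternatives were chosen with earlier results of these data known.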

Additional observations from a re-analysis of the deposited data

How the results depend on the processing

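Gfap remained higher in PILO than in CTRL, and in PILO+KD than in CTRL, under all 15 alternatives run for each comparison. Nothing is read from this shared direction, because the study listed Gfap on PILO against CTRL in these libraries. With all 9 pairings of TMM-normalised counts higher in each comparison, leaving out 1 library could hardly turn it. Leaving out 1 library moved the log2 fold change between 1.41 and 1.86 in PILO vs CTRL and between 0.97 and 1.73 in PILO+KD vs CTRL. The other alternatives gave 1.61 to 1.79 and 1.39 to 1.54. In PILO+KD vs CTRL the adjusted p ranged from 0.0549 (limma with library quality weights) to 1.00, so that no alternative passed. In PILO+KD vs PILO it ranged from 0.744 to 1.00, and the log2 fold change from -0.70 to 0.043 when 1 library was left out and from -0.29 to -0.19 otherwise. It turned positive only without PILO+KD replicate 2 (0.043), the animal with the least Gfap of its group. An exact test without a dispersion trend, added after seeing the data, gave Gfap adjusted p-values of 0.0633 against CTRL and 0.820 against PILO, and called 66 and 45 transcripts. Without the filter on low counts 1 transcript passed in PILO+KD vs PILO and 0 in PILO+KD vs CTRL. With 7859 to 70552 Gfap counts per library, counting error was at most 1.13%. The positions, spreads and CPM differences without single libraries were also added after seeing the data. No paired analysis was possible because the replicate numbers follow deposition order and pair no animals.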

Other observations

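The ratio of ENSRNOT00000065277 to Gfap was nearly the same in most libraries. Its count was 44.5%, 44.1% and 45.1% of the Gfap count in the CTRL libraries (mean 44.6 ± 0.546%, SD, n = 3), 43.2%, 46.3% and 35.3% in PILO, and 47.3%, 43.0% and 45.6% in PILO+KD. The lowest ratio was that of PILO replicate 3, the library in which the 10 most abundant transcripts took the largest share of counts. No row of the file held counts identical to those of Gfap. Whether the 2 identifiers share reads or a gene was not tested.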
